A study of Mus musculus with 2 samples.

Results

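High mitochondrial barcodes were those in which more than 10% of the UMIs (unique molecular identifiers, each standing for 1 captured RNA molecule) came from the 13 protein-coding genes of the mitochondrial genome, written mt- in mouse. They were taken among barcodes with at least 500 genes and 1000 UMIs. In all, 6907 of the 31219 barcodes that passed these minimums were over the limit, of 32541 deposited. They were compared with the 24312 barcodes at or below 10%, called low mitochondrial barcodes here, always within the same library. The mitochondrial share chose the members, so it is given as a description and without a test.

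The study injected a solution into mouse skin and profiled the skin by droplet single-cell RNA sequencing (10x Chromium). Both groups were C57Bl6 mice, male and female, 8 weeks old. One group received 100 ng of sitagliptin, an inhibitor of the surface peptidase DPP4, in 100 µl of phosphate-buffered saline (PBS) into the dermis, and the other received PBS alone. The labels give 48 h beside the collection of the skin without saying what the time is counted from, and the series title places DPP4 inhibition beside hair follicle activation and regeneration. The labels do not give the number of mice behind a library.

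Each treatment had 1 library, so no difference between treatments could be tested. The 95% intervals below cover counting error only. The letter in each deposited file's name is the initial of the other treatment, and the libraries are therefore called PBS-labelled and sitagliptin-labelled. An exchange of the labels would turn every direction between the libraries and none within a library. The PBS-labelled library held 10456 barcodes and 70729930 UMIs, and the sitagliptin-labelled library 22085 barcodes and 95047000 UMIs. A set of 75 barcode sequences occurred in both, of which 25 were high mitochondrial in the PBS-labelled library and 10 in the sitagliptin-labelled one. Barcodes led by fibroblast, macrophage or skeletal muscle markers were almost absent from the sitagliptin-labelled library. There 6 of 22036 barcodes had the collagen gene Col1a2 as their leading marker, 10 had C1qa and 0 had Acta1.

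Mitochondria keep a small circular genome that is transcribed inside the organelle, and its messages code for core subunits of respiratory complexes I, III, IV and ATP synthase. The other respiratory subunits, the mitochondrial ribosome and the enzymes that charge mitochondrial transfer RNAs are encoded in the nucleus and imported. In droplet data, a barcode collects whatever RNA its droplet held. Its mitochondrial share is a ratio, which depends on the mitochondrial UMIs and on all other UMIs alike.

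High mitochondrial barcodes made up 3251 of 9183 barcodes, or 35.4% (exact Clopper-Pearson interval 34.4 to 36.4), in the PBS-labelled library. They made up 3656 of 22036, or 16.6% (16.1 to 17.1), in the sitagliptin-labelled library. The median mitochondrial share among them was 18.04% in PBS-labelled and 12.4% in sitagliptin-labelled members, beside 5.93% and 5.85% in the low mitochondrial barcodes. The share of members with more than 20% mitochondrial UMIs was 44.1% in the first library and 11.3% in the second. More than 50% was reached by 100 and 5 barcodes, and the highest shares were 76.4% and 56.7%. The members of the sitagliptin-labelled library thus lay closer to the limit.

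Members held fewer UMIs of nuclear genes and more of mitochondrial genes than the low mitochondrial barcodes did. Both counts enter the share that chose the members, so some difference of this kind was fixed by the rule. In the PBS-labelled library the median count outside the mt- genes was 2018 UMIs in members and 6477.5 in low mitochondrial barcodes, which is 3.21-fold lower. The median mitochondrial count was 555 against 408 UMIs, 1.36-fold higher. Sitagliptin-labelled members had a nuclear count of 1544 against 2061 UMIs, 1.33-fold lower, and a mitochondrial count of 253 against 135 UMIs, 1.87-fold higher. The larger of these differences was thus the nuclear count in the PBS-labelled library and the mitochondrial count in the sitagliptin-labelled library. Members held a median of 1183 genes against 2452 in the first and 905 against 1101 in the second.

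The share of members was lower at greater depth in both libraries. Among PBS-labelled barcodes with 1000 to 1500 UMIs, 613 of 874, or 70.1%, were high mitochondrial. Among those with at least 20000 UMIs, 17 of 615, or 2.76%, were. The share was 21.3% (1177 of 5522) at 1000 to 1500 UMIs in the sitagliptin-labelled library and 0.561% (4 of 713) at 20000 or more. In every depth range the share was higher in the PBS-labelled library.

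Each barcode was sorted by the marker with the most UMIs, at least 3, among Krt14 (basal keratinocytes), Krt10 (spinous keratinocytes), Lor (granular keratinocytes), Krt79 (upper hair follicle), Col1a2 (fibroblasts), C1qa (macrophages) and Acta1 (skeletal muscle). Krt14 led 45.1% of PBS-labelled members and 57.6% of sitagliptin-labelled members, and Krt10 led 31.6% and 33.8%. High mitochondrial barcodes were therefore mostly led by a keratinocyte marker, as were the low mitochondrial ones, of which Krt14 led 47.6% and 54.7%. A lead of 3 UMIs does not settle what cell a shallow barcode held. In the PBS-labelled library the share over the limit was 34.1% (32.7 to 35.6) of Krt14-led barcodes and 41.5% (39.6 to 43.5) of Krt10-led barcodes. It was 36.4% (32.1 to 40.9) of Krt79-led, 25.03% (22.0 to 28.2) of C1qa-led, 25.3% (15.99 to 36.7) of Acta1-led and 17.3% (14.1 to 20.9) of Col1a2-led barcodes. Of the 26 Lor-led barcodes 5 were over the limit. Among barcodes left unsorted, 126 of 208 with tied markers (60.6%) and 152 of 347 under 3 marker UMIs (43.8%) were over it.

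In the sitagliptin-labelled library Krt10-led barcodes had the lowest share of the keratinocyte sets and not the highest, with 17.3% (16.7 to 18.01) of Krt14-led, 14.98% (14.2 to 15.8) of Krt10-led and 17.9% (14.7 to 21.3) of Krt79-led barcodes over the limit. Of the 10 C1qa-led barcodes 0 were over the limit, which allows a share of up to 30% by a limit of 3 counts and up to 30.8% by the exact interval. The PBS-labelled Krt10 members also had the higher median share, 19.97% against 17.6% in the Krt14 members. Their nuclear count was a median of 1786 UMIs against 8897 in low mitochondrial Krt10 barcodes, while their mitochondrial count was 608 against 547 UMIs.

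**Figure D1:**
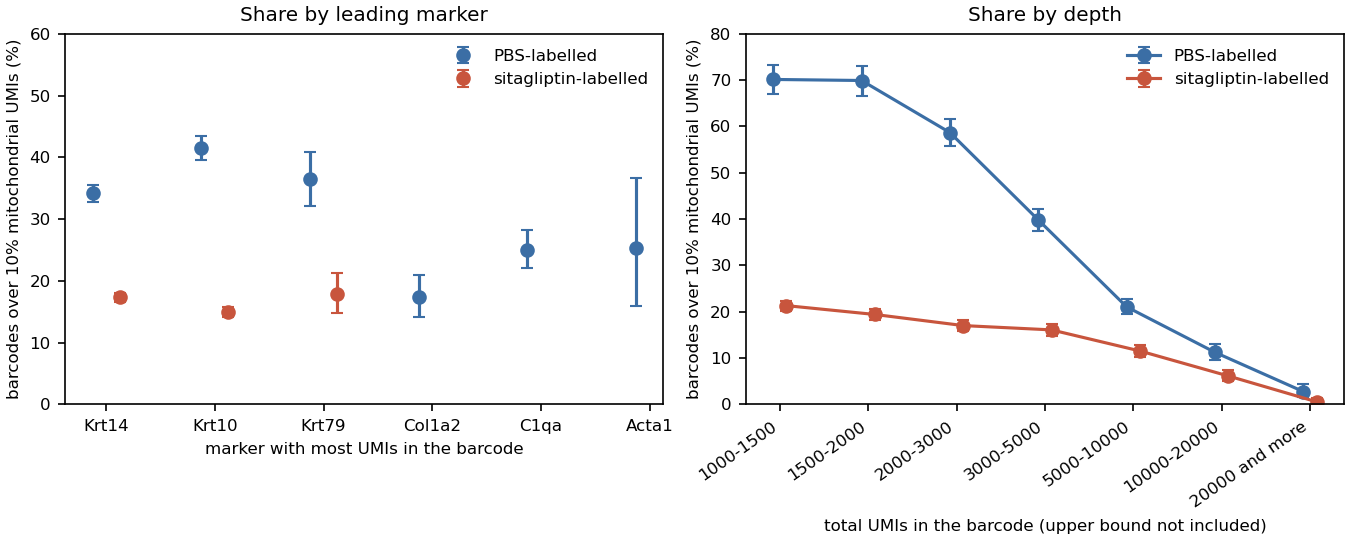
Share of barcodes over the mitochondrial limit, in percent, by leading marker (left) and by range of total UMIs (right) in either library, with exact 95% intervals. The PBS-labelled share goes from 70.1% in the shallowest range to 2.76% in the deepest, and the sitagliptin-labelled share from 21.3% to 0.561%.

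Barcodes that failed the gene or UMI minimum were not members. Of these, 918 of 1273, or 72.1% (69.6 to 74.6), were over 10% in the PBS-labelled library, while 44 of 49, or 89.8% (77.8 to 96.6), were so in the other. Doublets were not called. Members with at least 3 UMIs of markers of more than 1 broad cell type numbered 335 (10.3%) and 9 (0.246%), PBS-labelled library first, against 18.1% and 0.343% of low mitochondrial barcodes. Depth was not matched here, and members were shallower. Their median counts outside the mt- genes were 2018 against 6477.5 UMIs and 1544 against 2061 UMIs. These shares therefore do not show whether members were less mixed.

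The mitochondrial messages were not all higher by the same factor in members. The share of mitochondrial UMIs that came from mt-Co1, which codes for the catalytic subunit of complex IV, was lower in high than in low mitochondrial barcodes. It was 14.4% against 16.6% in the PBS-labelled library (ratio 0.869, 0.866 to 0.873) and, among sitagliptin-labelled barcodes, 15.9% against 17.4% (ratio 0.916, 0.912 to 0.920). The shares of mt-Atp6, an ATP synthase subunit, were 17.97% against 16.96% and 17.6% against 16.8%, with ratios of 1.06 and 1.05. For mt-Co3, another complex IV subunit, they were 21.4% against 20.6% and 20.9% against 20.2%. These mt-Co1 and mt-Co3 messages code for subunits of the same complex and differed in direction.

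Within leading-marker sets these shares were compared 9 times per gene, in each set with at least 15 barcodes on either side of the limit. The mt-Co1 ratio was below 1, interval included, in 8 of the 9, and the exception was the small PBS-labelled Acta1 set at 1.08 (0.992 to 1.19). The mt-Atp6 ratio was above 1 in 9 of 9, with the interval above 1 in 8. The complex I messages went both ways, with mt-Nd4 above 1 in 7 comparisons and mt-Nd5 below 1 in 8. The only gene on the other strand, mt-Nd6, gave 0.0318% against 0.0359% of mitochondrial UMIs, PBS-labelled library first, and 0.0310% against 0.0480%. The complex III gene mt-Cytb was above 1 in 8 comparisons, and the Acta1 set again differed, at 0.876. Expressed as UMIs per barcode, mt-Co3 averaged 149 in PBS-labelled members against 114.4 in low mitochondrial barcodes, and mt-Co1 100.4 against 92.0. By set, mt-Co1 per barcode was lower in members of the PBS-labelled Krt10 set (111.9 against 122.9), the PBS-labelled Krt79 set (107.8 against 122.6) and the sitagliptin-labelled Krt79 set (75.3 against 85.01).

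**Figure D2:**
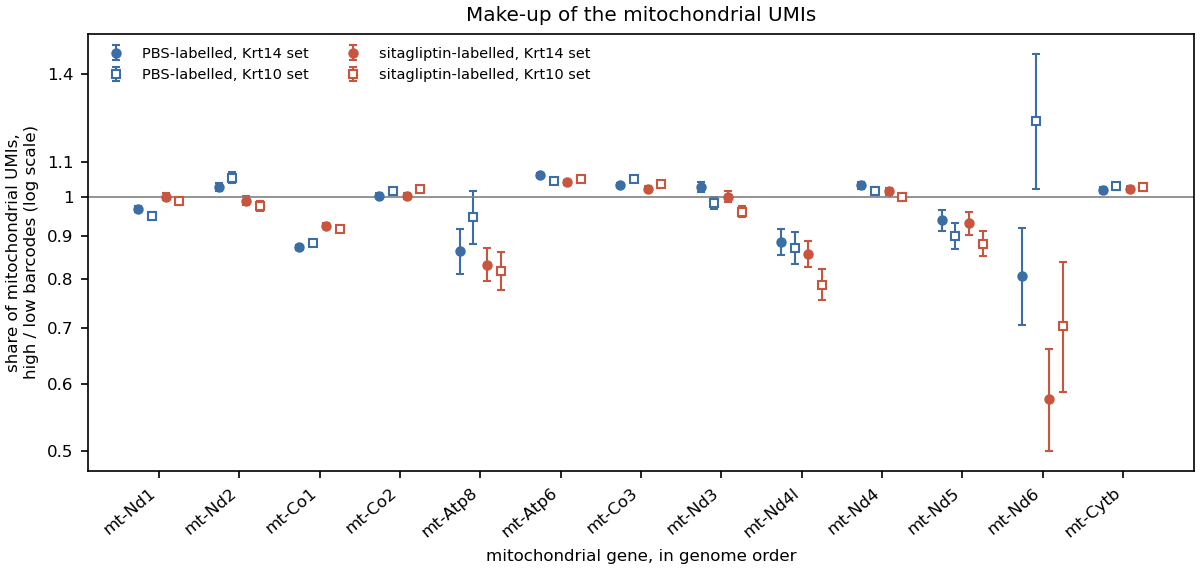
Ratio of each mt- gene's share of mitochondrial UMIs in high to that in low mitochondrial barcodes (y axis, log scale), in genome order, for the Krt14-led and Krt10-led barcodes of both libraries, with 95% counting intervals. Points for mt-Co1 lie below 1 and those for mt-Atp6 above 1 in all 4 sets shown, and mt-Nd6, with few UMIs, has the widest intervals.

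Across ranges of the mitochondrial share the mt-Co1 share moved by steps and not in a jump at 10%. In PBS-labelled Krt14 barcodes it was 16.5% of mitochondrial UMIs at a mitochondrial share of 2.5 to 5%, 14.7% at 10 to 12.5% and 13.1% at 30 to 50%. In sitagliptin-labelled Krt14 barcodes it was 17.3%, 15.9% and 14.5% in the same ranges. The last range held 244 and 37 barcodes.

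The share of nuclear UMIs from cytosolic ribosomal protein genes was lower the further a barcode lay over the limit. In PBS-labelled Krt14 barcodes it was 26.3% at a mitochondrial share of 5 to 7.5%, 20.2% at 15 to 20% and 12.0% at 30 to 50%. In PBS-labelled Krt10 barcodes it was 24.1%, 16.8% and 10.6% in these ranges. The sitagliptin-labelled Krt14 barcodes gave 25.1%, 21.2% and 17.02%, and the Krt10 barcodes 22.7%, 17.3% and 8.82%, the last from 51 barcodes. Above 50%, the PBS-labelled Krt14 and Krt10 sets stood at 13.9% (36 barcodes) and 11.9% (45 barcodes), which is not lower than at 30 to 50%.

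Lars2, the nuclear gene of the mitochondrial leucyl-tRNA synthetase, went the other way. Its level, in counts per 1000000 UMIs outside the mt- genes (CPM), was 284.7 at 5 to 7.5% and 1238 at 30 to 50% in PBS-labelled Krt14 barcodes, and 320.7 and 1791 in Krt10 barcodes. In the sitagliptin-labelled library it was 336.3 and 2033 in Krt14 barcodes, and 333.8 and 4796 in Krt10 barcodes. Gm42418, a gene at a site of ribosomal RNA repeat sequence, was also higher in the upper of these ranges. It was at 9309 and 31538 CPM in PBS-labelled Krt14 barcodes and 13600 and 40148 CPM in Krt10 barcodes. The sitagliptin-labelled values were 14395 and 59625 CPM, and 13164 and 173763 CPM. Whether the levels of Lars2 and Gm42418 are linked was not tested. The nuclear-retained RNA Malat1 was at 16611 and 50502 CPM in these ranges of PBS-labelled Krt14 barcodes. In sitagliptin-labelled Krt14 barcodes it was at 47502 CPM below 2.5%, 23955 CPM at 10 to 12.5% and 33252 CPM at 30 to 50%, so that it was lowest near the limit there.

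Just outside and just inside the limit, at 9 to 10% against 10 to 11%, ribosomal protein and mt-Co1 shares lay close together and Lars2 was higher inside. Ribosomal protein genes held 25.05% against 23.9% of nuclear UMIs in PBS-labelled Krt14 barcodes (247 and 181 barcodes) and 24.6% against 23.8% in sitagliptin-labelled ones (788 and 543 barcodes). The Krt10 sets gave 22.6% against 20.9% and 22.1% against 21.0%. Lars2 was at 449 against 616 CPM and at 548 against 612 CPM in the Krt14 sets. The mt-Co1 shares were 15.03% against 14.7% and 16.2% against 16.1%.

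**Figure D3:**
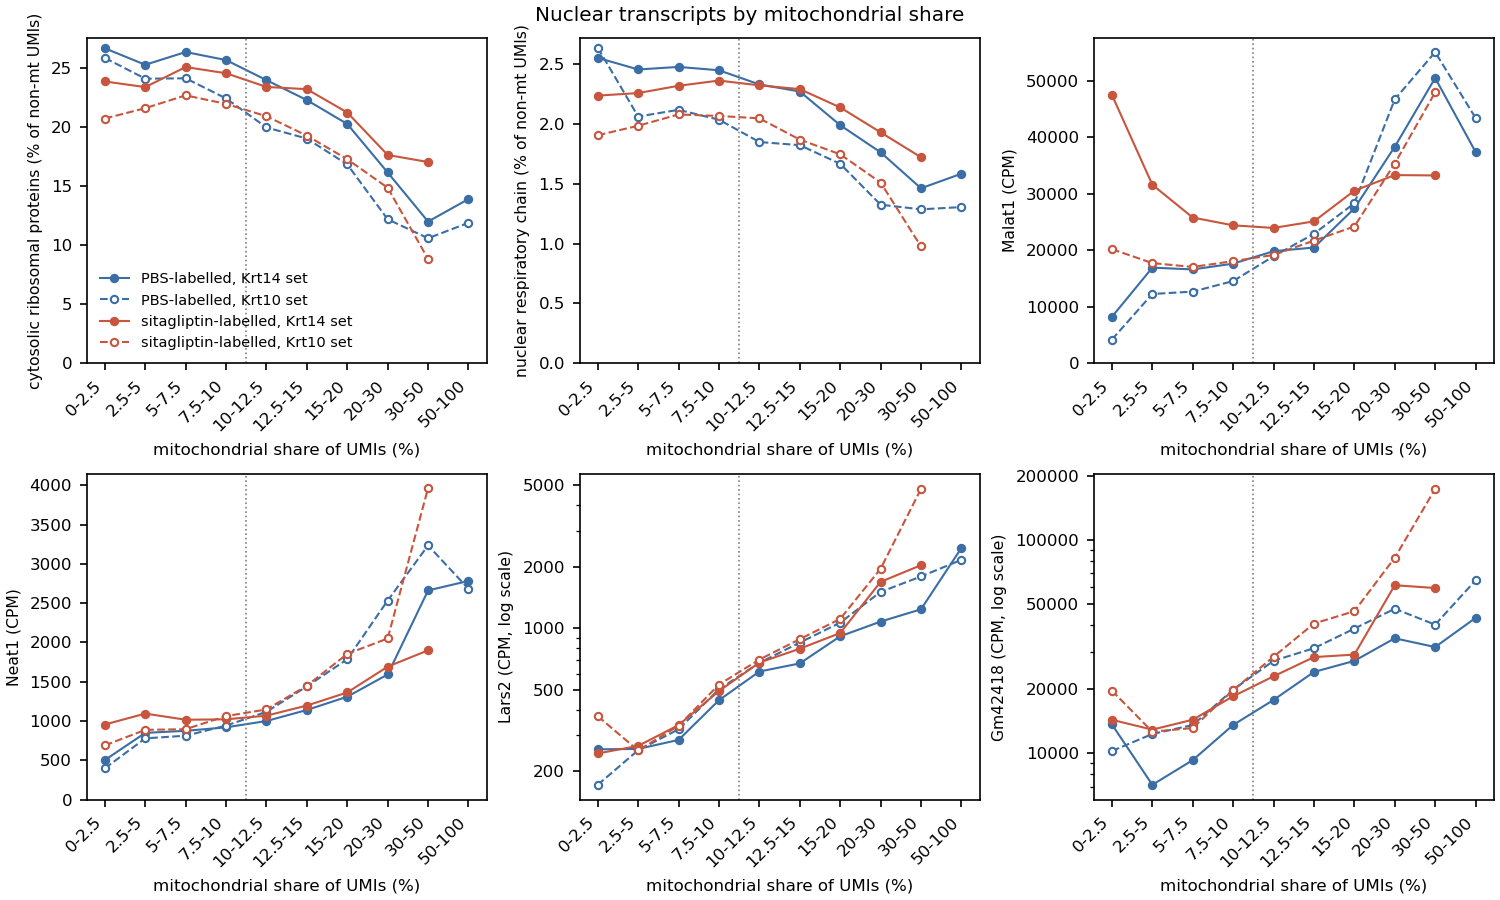
Shares of nuclear UMIs (2 panels) and levels in CPM (4 panels, of which Lars2 and Gm42418 have log axes) across ranges of the mitochondrial share (x axis, percent) in Krt14-led and Krt10-led barcodes of both libraries, with a dotted line at the limit of 10%. The ribosomal protein share of PBS-labelled Krt14 barcodes goes from 26.3% at 5 to 7.5% to 12.0% at 30 to 50%, while Lars2 goes from 284.7 to 1238 CPM.

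By the main settings, few genes of the Krt14 and Krt10 sets were at least 2-fold apart between high and low mitochondrial barcodes. Genes with at least 50 CPM in either group and 20 UMIs in all were compared on UMIs summed over barcodes, with mt- genes left out of the totals. In the PBS-labelled Krt14 set, 17 of 3667 genes reached this fold upward in members (0.464%) and 3 downward (0.0818%), 20 together (0.545%). In the PBS-labelled Krt10 set 88 of 3665 were higher (2.4%) and 3 lower (0.0819%), together 91 (2.48%). The sitagliptin-labelled Krt14 set gave 5 of 3391 higher (0.147%) and 0 lower (0.0%), and the Krt10 set 12 of 3371 higher (0.356%) and 1 lower (0.0297%), together 13 (0.386%). At 1.5-fold, 152 (4.15%) and 622 (17.0%) genes were higher in the PBS-labelled sets and 28 (0.826%) and 82 (2.43%) in the sitagliptin-labelled ones. Lower by 1.5-fold were 27 (0.736%) and 54 (1.47%) in the former and 1 (0.0295%) and 14 (0.415%) in the latter. Centred on the median gene, the PBS-labelled Krt14 split was 14 higher and 7 lower, and with mt- genes kept in the totals 8 higher and 10 lower. With low mitochondrial barcodes weighted to the members' depth it was 12 higher and 33 lower, and in the PBS-labelled Krt10 set 108 higher and 84 lower. Thinned to 500 UMIs per barcode, the PBS-labelled Krt14 and Krt10 sets had 180 and 565 genes at least 2-fold apart. For members over 20% these counts were 357 and 962, and 122 and 401 in the sitagliptin-labelled sets. Both groups of barcodes came from 1 library, so these counts have no replicate check.

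Leaving out predicted genes, 6 of 3107 genes were more than 1.5-fold higher and 1 lower in both Krt14 sets, and 58 of 3081 higher and 6 lower in both Krt10 sets. Lars2 was among them in both Krt14 sets, at 799.7 CPM in members and 305.6 in low mitochondrial barcodes of the PBS-labelled library (2.62-fold, 2.52 to 2.72). Among sitagliptin-labelled barcodes it was at 823.7 against 341.9 CPM (2.41-fold, 2.32 to 2.499). In the Krt10 sets Lars2 was at 1032.8 against 320.3 CPM (3.22-fold, 3.09 to 3.37) and at 972.3 against 329.6 CPM (2.95-fold, 2.84 to 3.07). Its level in members of these 4 sets thus lay between 799.7 and 1032.8 CPM. Lars2 lies on chromosome 9 from 123366927 to 123462666 (mm10, plus strand). Of the 31-base words at its annotated transcript ends, 0.207% also occur in transcripts of other genes and 0.138% on their reverse strand. Sequence outside annotated transcripts was not searched.

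The Lars2 difference was also present where depth was equal. Thinned to 500 nuclear UMIs per barcode, 29.6% of PBS-labelled Krt14 members held a Lars2 UMI against 11.9% of low mitochondrial barcodes, and 37.4% against 14.4% in the Krt10 set. The thinned shares of sitagliptin-labelled barcodes were 25.4% against 16.99% and 30.4% against 17.7%. Without thinning the shares were 67.8% against 70.0% and 55.3% against 54.2% in the Krt14 sets, where the low mitochondrial barcodes were deeper. Lars2 serves every cell with mitochondria, so no set lacked it and no background share could be had from these barcodes. In the other sets, Lars2 was 2.32-fold and 2.53-fold higher in Krt79-led members, 2.98-fold higher in Col1a2-led and 1.86-fold higher in C1qa-led members of the PBS-labelled library.

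The genes Gm42418, AY036118 and Gm26917 lie side by side on chromosome 17, between 39843013 and 39848788, at a site of ribosomal RNA repeat sequence. AY036118 lies within Gm42418 on the opposite strand. All of the 31-base words at its transcript end occur in transcripts of other genes, so its reads may belong to a neighbour. Of the words at the end of Gm42418, 82.2% occur on the reverse strand of another gene's transcripts. None of the words at the end of Gm26917 are shared. AY036118 was at 369.8 against 123.3 CPM (2.999-fold) and 324.0 against 182.1 CPM (1.78-fold) in the Krt14 sets, PBS-labelled library first. It was at 438.6 against 168 CPM (2.61-fold) and 361.7 against 156 CPM (2.32-fold) in the Krt10 sets. Gm42418 was 2.55-fold and 1.90-fold higher in the Krt14 sets and 2.48-fold and 2.84-fold higher in the Krt10 sets, and Gm26917 1.96-fold, 2.58-fold, 3.28-fold and 2.54-fold. These genes were looked at after their values had been seen.

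The other genes higher in members of both Krt14 sets were Cers4, Gdpd2, Tsix and Lor. Cers4, a ceramide synthase that makes lipids of the skin barrier, was at 83.4 against 51.7 CPM (1.61-fold), PBS-labelled library first, and 163 against 84.4 CPM (1.93-fold). Gdpd2 was at 63.7 against 34.8 CPM and 61.1 against 36.6 CPM. Tsix, the antisense partner of Xist, was at 118.6 against 52.4 CPM and 119.7 against 77.6 CPM. Of the 31-base words at its end, 50.5% occur on the reverse strand of transcripts of other genes. The genes that share words with it include Xist, which the naming rule left out as sex-linked. Both groups held male and female mice, and the sex behind each barcode is not given here. Lor, the main protein of the cornified envelope, was at 61.4 against 24.8 CPM and 223 against 137 CPM. Of its UMIs in members, 20.8% and 10.3% came from a single barcode. With low mitochondrial barcodes weighted to the members' depth the PBS-labelled Lor ratio was 1.09, and with a limit of 20% the sitagliptin-labelled one was 1.04.

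The histone gene Hist1h2ap was the single gene lower in both Krt14 sets. It was at 250.8 against 553.7 CPM (2.21-fold lower) and at 200.9 against 317.4 CPM (1.58-fold lower). All of the 31-base words at its end are shared with other histone genes, so its UMIs may be split among copies.

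In the Krt10 sets, Cers4 was at 54.2 against 12.0 CPM (4.53-fold) and 80.9 against 29.99 CPM (2.70-fold), and with members' depth matched by weighting the PBS-labelled ratio was 1.33. Pabpn1, a nuclear poly(A)-binding protein, was at 85.4 against 37.1 CPM (2.30-fold) and 95.3 against 45.1 CPM (2.12-fold). Of the words at its end, 39.5% occur in transcripts of other genes. Ccnt2, a cyclin of the elongation factor P-TEFb, was at 105.5 against 44.8 CPM (2.35-fold) and 91.1 against 48.7 CPM (1.87-fold). Tsix was 2.99-fold and 2.03-fold higher there.

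Of the 6 genes lower in both Krt10 sets, Lor was at 169.5 against 383.0 CPM (2.26-fold lower) and 440.5 against 704.7 CPM (1.60-fold lower), the opposite of its direction in the Krt14 sets. Sprr1a, a cornified envelope precursor, was at 101.1 against 257.5 CPM (2.55-fold lower) and 136 against 216.6 CPM (1.59-fold lower). Cdsn, the corneodesmosin that holds cornified cells together, was at 165 against 249 CPM (1.51-fold lower) and 201.5 against 334 CPM (1.66-fold lower). Wfdc21 was at 27.4 against 70.1 CPM and 67.6 against 122 CPM. The others were Ly6g6e (1.78-fold and 1.57-fold lower) and Cysrt1 (1.57-fold and 1.55-fold lower). In the PBS-labelled library the Wfdc21 ratio was 0.982 after thinning and the Cdsn ratio 0.970 after weighting by depth.

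**Figure D4:**
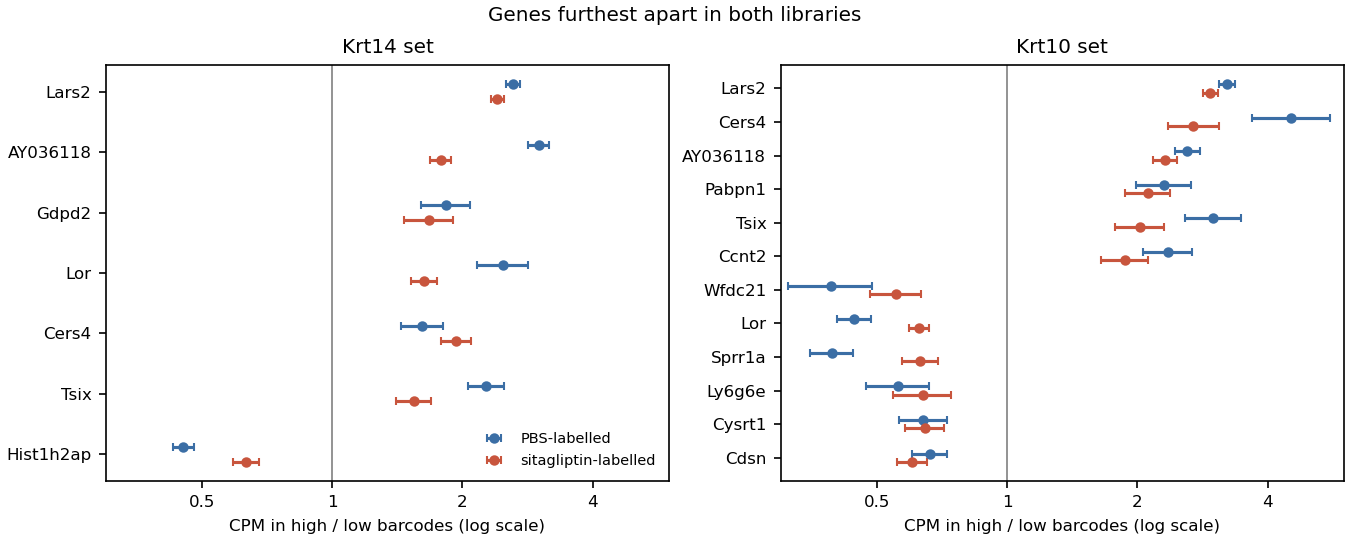
Ratio of the level in high to that in low mitochondrial barcodes (x axis, log scale) of the named genes past 1.5-fold in the same direction in both libraries, with 95% counting intervals, for the Krt14-led and Krt10-led sets. Lars2 stands at 2.62 and 2.41 in the Krt14 set and at 3.22 and 2.95 in the Krt10 set, and Lor lies on opposite sides of 1 in the 2 panels.

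Gene lists are given by their median log2 ratio of high to low mitochondrial barcodes (1 CPM added) in the order PBS-labelled Krt14, PBS-labelled Krt10, sitagliptin-labelled Krt14 and sitagliptin-labelled Krt10. Over all genes with at least 20 UMIs, the medians were 0.18, 0.27, 0.05 and 0.11, and the share of genes with a ratio under 1 was 28.6%, 27.4%, 40.7% and 35.5%. Genes were thus more often over 1 than under it in each set.

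Genes of the cytosolic ribosome, which build the protein-synthesis machinery, were lower in members in all 4 sets. Their medians were -0.29, -0.48, -0.11 and -0.18, and 86 of 88, 86 of 86, 83 of 87 and 84 of 87 had a ratio under 1. The median was below 0 under each of 11 other settings in each set. Few single genes were far apart, since 0, 9, 0 and 1 of them were at least 1.5-fold lower. Rpl29 was at 1276 against 1766 CPM, 1016 against 1537 CPM, 1340 against 1533 CPM and 1147 against 1377 CPM.

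Mitochondrial messages were high in members by the rule that chose them. By their medians, the nuclear-encoded subunits of the respiratory chain were not higher in members. Their medians were -0.21, -0.28, -0.03 and -0.06, with 77 of 87, 80 of 87, 57 of 85 and 60 of 84 under 1. In the sitagliptin-labelled Krt14 set the median was 0.00 after thinning, so no direction is given there. All 14 measured ATP synthase genes were under 1 in the PBS-labelled sets and the sitagliptin-labelled Krt10 set, and 11 of 14 in the sitagliptin-labelled Krt14 set. Atp5g1, of the membrane ring, had ratios of 0.762, 0.736, 0.953 and 0.864. In complex IV 11 of 14, 11 of 14, 10 of 12 and 10 of 11 were under 1, whereas the muscle isoforms Cox7a1 (2.02 and 3.37) and Cox8b (2.40 in the Krt14 set) were over 1 in the PBS-labelled sets. The complex II subunit Sdha had ratios of 1.08, 1.22, 1.05 and 1.04. The smallest ratios in the Krt14 sets included Ndufa4l2, at 0.70 and 0.814.

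The nuclear genes of mitochondrial ribosomal proteins had medians of -0.21, -0.20, -0.08 and -0.03, and 69 of 78, 61 of 77, 53 of 77 and 49 of 77 were under 1. With a limit of 5% for the low mitochondrial barcodes the last median was 0.01. Genes that copy and express the mitochondrial genome had medians of 0.16, 0.21, 0.13 and 0.26, below those of all genes in the PBS-labelled sets and above them in the sitagliptin-labelled ones. Polg, the mitochondrial DNA polymerase, had ratios of 1.39, 1.49, 1.38 and 1.30. Slirp, an RNA-binding protein that stabilises mitochondrial messages, was under 1 in all 4 sets, at 0.803, 0.727, 0.952 and 0.864. Genes of mitophagy and mitochondrial stress had medians of -0.03, -0.02, 0.03 and -0.00, with signs that changed with the processing except in the PBS-labelled Krt10 set.

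RNAs known to be retained in the nucleus had medians of 0.48, 0.68, 0.19 and 0.43, and 8, 9, 7 and 9 of 9 were over 1. Malat1 was 1.55-fold, 2.34-fold, 0.932-fold and 1.26-fold in members relative to low mitochondrial barcodes. In the sitagliptin-labelled library its direction changed with the settings, from 0.758 to 1.20 in the Krt14 set and from 0.883 to 2.13 in the Krt10 set. Neat1, the scaffold RNA of paraspeckles, was over 1 in all 4 sets, at 1.48, 2.15, 1.14 and 1.59.

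Of the stress lists, heat shock genes lay below the median of all genes in all 4 sets, at 0.03, 0.08, -0.04 and -0.08. Immediate early genes, which tissue dissociation is known to induce, lay above it, at 0.20, 0.40, 0.08 and 0.22. Fos had ratios of 0.878, 1.11, 0.845 and 0.896. Apoptosis genes and p53 targets had medians of 0.02, 0.32, -0.00 and 0.12. Apaf1, which assembles the apoptosome, had ratios of 1.68, 2.05, 1.21 and 1.15, while Cycs, the cytochrome c that binds it, had 0.762, 0.808, 0.933 and 0.934. Weighting by depth turned the PBS-labelled medians of the immediate early list to -0.06 (Krt14) and -0.09 (Krt10), and those of the apoptosis list to -0.11 and -0.16. Genes of glycolysis had medians of -0.18, -0.15, -0.09 and -0.05, and Gapdh ratios of 0.667, 0.799, 0.835 and 0.923.

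Genes of the G2 and M phases, a list chosen after the data had been seen, had medians of -0.42, -0.13, -0.22 and -0.13, and 49, 34, 48 and 39 of 52 were under 1. Ube2c, which drives mitotic exit, was at 120.4 against 239.1 CPM in the PBS-labelled Krt14 set. With depth matched by weighting, the PBS-labelled medians were 0.15 and 0.11, the opposite direction. S phase genes had medians of -0.06, -0.03, -0.12 and 0.06, with signs that changed with the processing in all 4 sets.

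Epidermal markers differed by leading marker. Spinous genes were under 1 in 5 of 5 cases in both Krt10 sets, with medians of -0.39 and -0.33. Krtdap, a secreted protein of differentiating keratinocytes, was at 7492 against 12366 CPM in the PBS-labelled Krt10 set (ratio 0.606) and had a ratio of 0.731 in the sitagliptin-labelled one. Krt10 itself, which served for the sorting, had ratios of 0.762 and 0.851 there. Granular genes were over 1 in all 5 and all 6 measured cases in the Krt14 sets, with medians of 1.27 and 0.65. They had medians of -0.30 and -0.22 in the Krt10 sets, although Flg, the filaggrin precursor, was at 183 against 109.8 CPM and 418.7 against 149.1 CPM there. By depth weighting the granular medians were 0.39 in the PBS-labelled Krt14 set and 0.14 in the Krt10 set (0.17 there after thinning), and with a limit of 20% the sitagliptin-labelled Krt14 median was -0.11. Among basal genes, Krt5 was under 1 in all 4 sets, at 0.784, 0.758, 0.84 and 0.813, and Krt15 over 1, at 1.22, 1.83, 1.02 and 1.45.

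Markers of the hair follicle bulge and outer root sheath were over 1 in 6 of 6 cases in each of the 4 sets, with medians of 1.07, 1.76, 0.15 and 0.78. Krt75 had ratios of 5.04, 3.48, 1.09 and 1.96, and the stem cell gene Lgr5 2.17, 8.17, 1.18 and 1.80. With depth matched by weighting, the medians were 0.05, 1.004, 0.06 and 0.04, so that the PBS-labelled Krt10 median alone stayed far from 0. Sebocyte genes were over 1 in 5 of 5 cases in each set, with medians of 0.28, 0.88, 0.92 and 1.17. Elovl3, which lengthens fatty acids for sebum, had ratios of 1.93, 2.21, 2.04 and 2.45, and Scd1, a fatty acid desaturase, 1.20, 1.18, 1.89 and 1.55. Of the adipocyte genes, Fabp4, a fatty acid carrier, had ratios of 4.08, 3.08, 1.70 and 8.02, and depth weighting turned the first 3 of these below 1. Upper follicle genes had medians of 0.09, 0.32, 0.09 and 0.50, wound keratinocyte genes 0.14, 0.00, 0.03 and -0.33, and glucocorticoid-responsive genes 0.21, 0.40, 0.08 and 0.16. Depth weighting turned the PBS-labelled Krt10 glucocorticoid median to -0.09 and the sitagliptin-labelled Krt10 upper follicle median to -0.03. Against barcodes at most 5%, the PBS-labelled Krt14 wound median was -0.30, and the signs of upper follicle and wound medians changed under other settings in 3 of the 4 sets.

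**Figure D5:**
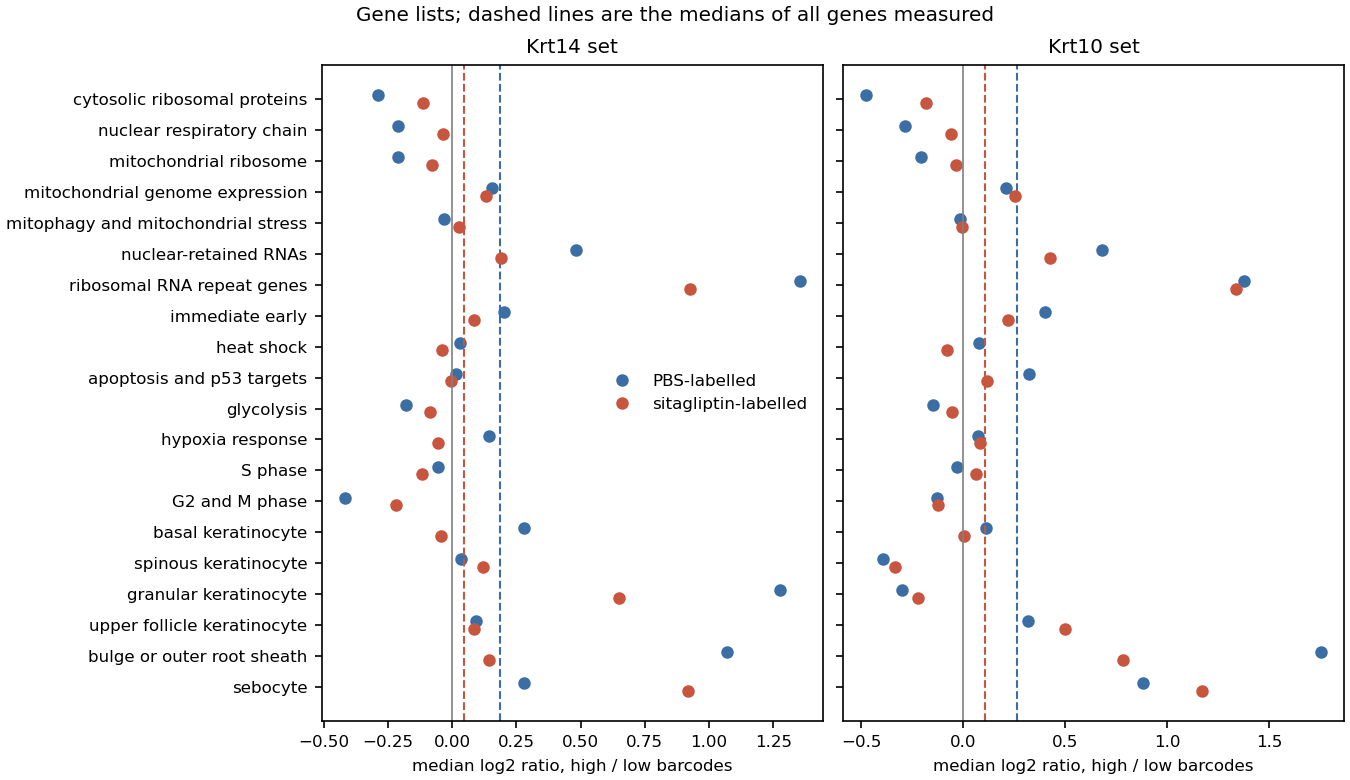
Median log2 ratio of high to low mitochondrial barcodes for each gene list in the Krt14-led and Krt10-led sets of both libraries, with the median over all genes as a dashed line per library. Cytosolic ribosomal genes lie at -0.29, -0.48, -0.11 and -0.18, below the medians of all genes (0.18, 0.27, 0.05 and 0.11).

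Skeletal muscle, fibroblast and macrophage markers were, in sum, also higher in Krt14-led and Krt10-led members of the PBS-labelled library. Their part in these differences was not tested. The haemoglobin genes Hba-a1 and Hbb-bs went the other way in the PBS-labelled Krt14 set, with ratios of 0.29 and 0.206. Col1a2 had a ratio of 0.949 in the PBS-labelled Krt10 set. All 6 skeletal muscle markers were at least 1.5-fold higher in both PBS-labelled keratinocyte sets, with summed levels of 140.4 against 65.3 CPM in the Krt14 set and 199.1 against 79.0 CPM in the Krt10 set. Acta1, the muscle actin, was at 60.4 against 23.6 CPM and 73.1 against 27.5 CPM. In the sitagliptin-labelled sets the muscle sums were 9.14 against 7.11 CPM and 7.84 against 9.13 CPM, and 2 of the 6 muscle markers were at 0 in members of each set. The 6 fibroblast markers summed to 483.8 against 270.5 CPM and 357.6 against 318.2 CPM in the PBS-labelled sets, and to 189.8 against 181.9 CPM and 111.9 against 88.3 CPM in the sitagliptin-labelled ones. The 6 macrophage markers, 0 of them at zero, summed to 452.6 against 400.9 CPM and 742.9 against 521 CPM, and to 23.7 against 15.5 CPM and 13.3 against 7.00475 CPM.

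The Krt79 set held 176 PBS-labelled and 97 sitagliptin-labelled members. Ribosomal genes had medians of -0.29 and -0.16, and 84 of 86 and 80 of 86 were under 1, where 45.6% and 50.9% of all genes were. The 2-fold counts were 21 higher (0.59%) and 14 lower (0.393%) of 3561 genes in the PBS-labelled library, 35 together (0.983%). Its sitagliptin-labelled counterpart gave 37 higher (1.01%) and 50 lower (1.36%) of 3670, 87 together (2.37%). At 1.5-fold the counts were 195 higher (5.48%) and 70 lower (1.97%) in the first, and 346 higher (9.43%) and 229 lower (6.24%) in the second. Sebocyte genes were under 1 in 5 of 5 cases in both libraries, with medians of -0.28 and -0.82, whereas they were over 1 in the Krt14 and Krt10 sets. The difference between sets was not tested. Spinous genes were over 1 in 5 of 5 cases in both, with medians of 0.45 and 0.33.

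The PBS-labelled Col1a2 set held 88 members and 420 low mitochondrial barcodes. Ribosomal genes had a median of -0.51 there, with 83 of 87 under 1 and 33 at least 1.5-fold lower, where 48.1% of all genes were under 1. Keratinocyte genes were higher in these fibroblast-led members, with all 6 basal and all 5 spinous genes over 1. Krt14 was at 1273 against 678 CPM and Krt10 at 1723 against 678 CPM. The fibroblast markers were also over 1 in 6 of 6 cases (median 0.31), and Col1a2, which served for the sorting, had a ratio of 1.39. At least 2-fold, 243 of 3868 genes were higher (6.28%) and 168 lower (4.34%), together 411 (10.6%), and at 1.5-fold 666 were higher (17.2%) and 509 lower (13.2%). Of the 6 most raised genes, 5 had most of their few UMIs in a single barcode, among them Ednrb with 16 UMIs and Fabp4 with 19. The genes most lowered included H2-Aa, a class II antigen-presenting chain, with 1 against 127 UMIs. Another was the matrix protein Thbs1, with 4 against 275 UMIs. Members held 200241 nuclear UMIs in all against 2293270, so that the ratios in CPM were 0.0902 (0.00227 to 0.512) and 0.167 (0.0451 to 0.431). The 127 H2-Aa UMIs lay in 30 barcodes, with 19.7% in a single one.

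The PBS-labelled C1qa set held 193 members and 578 low mitochondrial barcodes. Here 41 of 3917 genes reached 2-fold upward (1.05%) and 17 downward (0.434%), together 58 (1.48%), and 1.5-fold was reached by 296 upward (7.56%) and 135 downward (3.45%). Ribosomal genes had a median of -0.21, with 80 of 86 under 1, where 46.0% of all genes were. Cell cycle genes were lower on summed UMIs, with 35 of 45 genes of the G2 and M phases under 1 and 24 of them at least 1.5-fold lower (median -0.54). Depth was not matched for this set, in which members held a median of 1969 nuclear UMIs against 3987. Hist1h2ap was 3.18-fold lower, Ube2c 2.83-fold lower and Lmnb1, a nuclear lamin, 3.19-fold lower (8 against 139 UMIs). Macrophage markers were under 1 in 5 of 6 cases (median -0.29), while C1qa itself, which served for the sorting, had a ratio of 1.01. Basal and spinous keratinocyte genes were over 1 in 6 of 6 and 5 of 5 cases, with spinous sums of 2976 against 1655 CPM.

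Between the libraries, the members of the Krt14 set differed at least 2-fold in 72 of 3736 genes, with 34 higher (0.91%) and 38 lower (1.02%) in the sitagliptin-labelled library. The low mitochondrial barcodes gave 36 higher (1.06%) and 24 lower (0.704%) of 3408. In the Krt10 set the members gave 15 higher (0.401%) and 85 lower (2.27%) of 3744, and the low mitochondrial barcodes 7 higher (0.216%) and 46 lower (1.42%) of 3245. With leading markers chosen on scaled UMIs, the members' splits were 43 higher and 20 lower in the Krt14 set and 4 higher and 59 lower in the Krt10 set. Thinned to 500 UMIs per barcode, they were 62 higher and 161 lower in the Krt14 set and 73 higher and 307 lower in the Krt10 set. Whether members and low mitochondrial barcodes differ in this contrast was not tested.

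The genes higher in sitagliptin-labelled members were largely higher in low mitochondrial barcodes too. In the Krt14 set Lor was at 223 against 61.4 CPM, a ratio with an interval of 3.20 to 4.14, beside 5.53 in low mitochondrial barcodes. Tsc22d3, a glucocorticoid-induced transcriptional regulator, was at 206.5 against 76.5 CPM (2.70-fold, beside 2.62). Fkbp5, another glucocorticoid-induced gene, was 2.53-fold higher in the Krt10 set, beside 2.34, and Lce1m, of the late cornified envelope, 4.34-fold higher, beside 2.72. The 6 genes furthest lower in the Krt14 set included those of other cell types, such as Acta1 (39.6-fold lower, beside 55.8) and the macrophage lysozyme Lyz2 (34.2-fold, beside 28.6). The keratin gene Krt6b was also lower, 8.68-fold in the Krt14 set, beside 10.9, and 12.5-fold in the Krt10 set, beside 4.32. Malat1 differed between the groups, with ratios of 0.989 and 0.754 in members of the Krt14 and Krt10 sets and 1.65 and 1.41 in low mitochondrial barcodes. Lars2 had ratios of 1.03 and 0.941 in members, whose sign changed with the processing.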

How the data were processed

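Both libraries came from 10x Chromium droplets and polyadenylated RNA. The authors deposited UMI counts per gene and barcode (31053 genes), made with Cell Ranger 3.1.0 on mm10, per the submitters' processing notes; the counts were not normalized. Gene positions and transcript sequences are from GENCODE vM21, to which 30934 of the gene identifiers matched. Shared ends are 31-base words in the last 400 bases that occur anywhere in annotated transcripts of other genes. Members and gene lists were chosen with earlier results of these data known. UMIs were summed over barcodes per library and leading marker and scaled to CPM outside the 13 mt- genes. Ratios have exact conditional binomial intervals and shares exact Clopper-Pearson intervals, at 95% and for counting error only. The computing used Python 3.11.15, numpy 2.4.6, scipy 1.17.1 and pandas 2.3.3, and was tested on simulated data.

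With 1 library per treatment no test across samples was run. Depth was 70729930 UMIs and 95047000 UMIs, PBS-labelled library first. Ties and barcodes under 3 marker UMIs stayed out of the leading-marker sets, and sets needed 50 barcodes on each side for nuclear genes and 15 for the shares of mt- genes. No doublet caller was run, and barcodes with markers of more than 1 broad type were left out as an alternative. Named genes were up to 6 in each direction past 1.5-fold in both libraries (Krt14 and Krt10 sets), or in the one library where a set was large enough, and up to 6 in each direction between libraries. The rule left out predicted, ribosomal, haemoglobin and sex-linked marker genes. It also named every mt- gene, the 7 sort markers and members of lists. Gm42418 and Gm26917 came in through a list added after seeing the data, as did the cell cycle and adipocyte lists. Alternatives were other mitochondrial limits, UMI and marker minimums, scalings, thinning and depth weighting. For levels of nuclear genes they were run in the Krt14 and Krt10 sets only.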

Additional observations from a re-analysis of the deposited data

Results flagged for a closer look

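Among list genes with at least 50 CPM in 1 of the groups compared, 4 were at least 1.5-fold apart between high and low mitochondrial barcodes in opposite directions in the libraries. These differences were not tested, since each treatment had 1 library. In the Krt14 set, the haemoglobin gene Hba-a1 had a ratio of high to low mitochondrial barcodes of 0.29 in the PBS-labelled library (90 against 1649 UMIs) and 6.06 in the sitagliptin-labelled one (113 against 144 UMIs). Hbb-bs, another haemoglobin gene, had 0.206 (152 against 3929 UMIs) and 15.2 (75 against 38 UMIs), and the 75 UMIs lay in 4 barcodes. In the Krt10 set, the muscle actin Acta1 had 2.66 (232 against 478 UMIs) and 0.519 (1 against 23 UMIs). The melanocyte gene Dct had 2.72 (181 against 364 UMIs) and 0.373 (9 against 288 UMIs).

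Barcodes under the gene or UMI minimum, which entered no comparison, were over the mitochondrial limit in 89.8% of 49 cases in the sitagliptin-labelled library, beside 72.1% of 1273 in the PBS-labelled library.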

How the results depend on the processing

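No paired analysis was possible because each treatment had 1 library. Counts of genes at least 2-fold apart moved most. In the order PBS-labelled Krt14 (20), PBS-labelled Krt10 (91), sitagliptin-labelled Krt14 (5) and Krt10 (13), they were 852, 1540, 537 and 874 with no CPM minimum, 357, 962, 122 and 401 for members over 20%, 73, 169, 12 and 36 against barcodes at most 5%, and 45, 192, 3 and 4 with depth weighting. Thinning gave 180, 565 and, in the sitagliptin-labelled Krt10 set, 21. A minimum of 10 marker UMIs gave 12 and 45 in the PBS-labelled sets, centring on the median gene 51 in the PBS-labelled Krt10 set, and mt- genes kept in the totals 37 there and 2 in the sitagliptin-labelled Krt14 set. Between libraries, the Krt14 count (72) was 223 after thinning, and the Krt10 count (100) was 380 after thinning, 63 with scaled markers and 57 with 10 marker UMIs.

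The share of members was 39.9% over all deposited PBS-labelled barcodes. With at least 2000 UMIs it was 27.8% and 13.2% (PBS-labelled library first), against only barcodes at most 5% it was 63.8% and 37.8%, and over 20% it was 15.6% and 1.87%. By marker, at least 2000 UMIs gave 27.9% and 14.3% (Krt14), 33.1% and 11.6% (Krt10), 30.9% and 14.1% (Krt79), 12.1% (Col1a2) and 18.5% (C1qa). A minimum of 10 marker UMIs gave 28.9% and 16.5% (Krt14), 32.4% and 13.4% (Krt10) and 19.0% (C1qa), and scaled markers 16.3% for sitagliptin-labelled Krt14.

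Of the list medians, depth weighting moved bulge to 0.048 (PBS-labelled Krt14), 1.004 (PBS-labelled Krt10) and 0.038 (sitagliptin-labelled Krt10), granular to 0.39 (PBS-labelled Krt14) and sebocyte to 0.39 (sitagliptin-labelled Krt10). Against barcodes at most 5%, PBS-labelled bulge was 1.9997 (Krt14) and 2.40 (Krt10) and sebocyte 1.46 (Krt14); bulge was 0.91 with 10 marker UMIs (Krt10). For members over 20%, sitagliptin-labelled granular was -0.11 (Krt14, reversed) and -0.81 (Krt10), ribosomal RNA repeat 2.03 and 2.46, and nuclear-retained 1.14 (Krt10), with 1.11 in the PBS-labelled Krt14 set; thinned, nuclear-retained was 1.41 (PBS-labelled Krt10). Reversed single log2 ratios were Cd34 at -0.080 (PBS-labelled Krt14, weighted) and -0.13 (sitagliptin-labelled Krt10, thinned), and Fabp4 at -1.24 and -0.45 (PBS-labelled Krt10 and Krt14, weighted) and, in the sitagliptin-labelled Krt14 set, -0.0056 (weighted), -1.33 (over 20%) and -0.53 (thinned). The causes were not tested. Lars2 stayed higher in members under all 11 alternatives, by 2.29 to 3.84, 2.52 to 5.15, 1.85 to 5.08 and 2.38 to 7.70-fold in the 4 sets in the order above. Depth limits scarce genes most: a gene at 50 CPM has few UMIs in the smaller sets.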
